A study of Mus musculus with 12 samples.

Results

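The report concerns the 10 genes for the core and accessory subunits of Polycomb repressive complex 2 (PRC2) in germ cells of mouse embryos with and without conditional deletion of Ezh2. The genes were chosen by their place in the complex, as a list of names and not by a cut on their values, but with earlier results of these data known. They are Ezh2, Ezh1, Eed and Suz12 of the core, Mtf2, Phf19, Phf1 and Epop of the PRC2.1 form, and Jarid2 and Aebp2 of the PRC2.2 form. All 10 were found among the 37991 genes of the count table, and all 10 are among the 16708 genes that passed the filter on low counts. RNA was sequenced from primordial germ cells of 12 C57BL/6 embryos at E13.5 (embryonic day), with 1 embryo per library.

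Conditional knockout of Ezh2 (CKO) was compared with control (Ctrl) within each sex, with 2 CKO and 3 Ctrl females and with 3 CKO and 4 Ctrl males. Neither the driver of Cre nor the deleted exons are given in the labels, nor what alleles the controls carry or which embryos were littermates. A count over the whole gene therefore includes reads of any transcript that a deleted allele still makes. Germ cells were obtained by sorting, so each library is a bulk sample, in which fewer cells of a type and less RNA per cell cannot be told apart.

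PRC2 methylates lysine 27 of histone H3, and the trimethylated form marks repressed genes. EZH2 and its paralogue EZH1 are the alternative catalytic subunits. EED binds the finished mark and stimulates further methylation, and SUZ12 is the scaffold on which the core and the accessory proteins meet. The PRC2.1 form carries a Polycomb-like protein (PHF1, MTF2 or PHF19) that helps the complex to CpG-rich DNA, and may carry EPOP, which also contacts elongin. The PRC2.2 form carries JARID2 and AEBP2, which assist binding to nucleosomes. In germ cells the mark is one of the repressive layers present while DNA methylation is at its lowest.

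The libraries held between 26180685 and 35299206 counts, and 1 CPM (read counts scaled to library size) stood for 24.2 to 34.2 counts. Ezh2 had between 2375 and 4886 counts in a library, and the thinnest member, Phf1, between 98 and 434. Markers of germ cells (10 of 10 with counts in every library) summed to between 6341 and 7692 CPM. Ddx3y, a gene of chromosome Y, had 0 counts in all 5 female libraries and between 498 and 1016 in the males. With Xist, Uty, Eif2s3y and Kdm5d it summed to 160 to 194 CPM in male CKO and to 245 to 301 CPM in male Ctrl. None of these 5 was called between the male groups, but all 5 were lower in CKO, with a median log2 fold change of -0.57. An unadjusted p under 0.05 in edgeR was found for 4 of them, beside 16.7% of all tested genes. The part of this difference in the levels of the members was not tested. A few libraries stood apart. Red blood cell markers summed to 14.1 CPM in female CKO 1 and to 5.99 CPM in male CKO 1, against at most 1.91 CPM elsewhere. Sertoli cell markers were highest, at 35.1 CPM, in male Ctrl 1. They were at 25.9 CPM in male CKO 1 and male CKO 3, and at 12.8 to 15.3 CPM in the remaining males.

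The promoters shown first are those of the 3 members called between CKO and Ctrl and of Phf19, the member with the largest difference between the sexes. RefSeq windows on GRCm38.p6, each of 300 bases, from 250 before to 50 after a gene's start, matched 9 of the 10 members, and Epop was not matched. They were searched on both strands for 3 spellings of an E2F-type site (TTTCGCGC, TTTGGCGC and TTTCCCGC, whose matches can share bases with those of the other motifs), since E2F factors drive genes of the dividing cell, and for CCAAT and GGGCGG. Each is written 5′ to 3′ along the strand of its gene. Capitals mark an E2F-type match. The windows are those of Ezh2 (chr6:47594981-47595280, minus strand), Suz12 (chr11:79992856-79993155, plus strand), Jarid2 (chr13:44730524-44730823, plus strand, the upstream of its 2 windows) and Phf19 (chr2:34913927-34914226, minus strand).
Ezh2: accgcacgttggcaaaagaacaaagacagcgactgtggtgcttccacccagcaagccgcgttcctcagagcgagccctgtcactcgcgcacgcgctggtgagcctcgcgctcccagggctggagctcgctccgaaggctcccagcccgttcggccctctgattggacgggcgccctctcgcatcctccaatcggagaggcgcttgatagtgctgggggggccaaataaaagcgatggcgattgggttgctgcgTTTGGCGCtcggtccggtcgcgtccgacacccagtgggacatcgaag
Suz12: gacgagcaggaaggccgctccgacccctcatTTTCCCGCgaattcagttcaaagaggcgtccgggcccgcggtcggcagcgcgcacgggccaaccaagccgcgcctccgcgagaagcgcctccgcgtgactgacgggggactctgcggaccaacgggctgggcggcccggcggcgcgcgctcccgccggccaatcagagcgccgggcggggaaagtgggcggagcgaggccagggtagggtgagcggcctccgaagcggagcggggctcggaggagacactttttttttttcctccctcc
Jarid2: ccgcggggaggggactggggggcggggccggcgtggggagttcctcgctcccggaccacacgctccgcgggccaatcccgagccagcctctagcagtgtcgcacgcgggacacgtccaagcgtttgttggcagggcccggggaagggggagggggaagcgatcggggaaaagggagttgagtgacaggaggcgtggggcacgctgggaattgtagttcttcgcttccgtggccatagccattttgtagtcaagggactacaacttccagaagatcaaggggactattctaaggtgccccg
Phf19: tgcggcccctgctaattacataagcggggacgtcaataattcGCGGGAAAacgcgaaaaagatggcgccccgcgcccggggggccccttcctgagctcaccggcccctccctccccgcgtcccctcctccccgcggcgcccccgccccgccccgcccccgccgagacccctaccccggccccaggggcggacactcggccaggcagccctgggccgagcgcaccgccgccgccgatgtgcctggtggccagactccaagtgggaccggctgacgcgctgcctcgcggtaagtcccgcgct
Ezh2 holds TTTGGCGC just past its start. Suz12 and Phf19 hold TTTCCCGC, in Phf19 on the opposite strand of the window. No window of the other 6 matched members, Jarid2 among them, has these letters. An E2F-type match was found in 1.84% of all 32851 windows, CCAAT in 37.4% and GGGCGG in 35.7%. The Ezh2 window has 3 CCAAT matches and no GGGCGG, Suz12 has 1 and 3, Jarid2 has 1 and 1, and Phf19 has no CCAAT and 4 GGGCGG. All 4 windows are rich in CpG, with 31 in Ezh2, 41 in Suz12, 24 in Jarid2 and 38 in Phf19, against a median of 7 over all windows. These matches are descriptions of letters and show no binding.

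Ezh2 (ENSMUSG00000029687, chromosome 6), the targeted gene, was lower in CKO germ cells of both sexes but far from absent. In females it measured 84.5 and 107 CPM in the CKO embryos, against 150, 145 and 166 CPM in the Ctrl embryos. Both CKO embryos lay below all 3 controls. The CKO level was 0.622 of the Ctrl level, a log2 fold change of -0.68 ± 0.15 (SE), with an adjusted p of 0.02 in edgeR's quasi-likelihood test. In males Ezh2 measured 85.8, 82.4 and 85.0 CPM in the CKO embryos, against 96.6, 144, 129 and 119 CPM in the Ctrl embryos. The CKO embryos were close to each other and below every control, while male Ctrl 1 was the lowest control by a wide margin. The male fold change was -0.53 ± 0.13 with an edgeR adjusted p of 0.0527, just past the 0.05 threshold. Summed endothelial markers were at 1.31 to 2.29 CPM in male CKO and at 0.536 to 0.818 CPM in male Ctrl. Of the mesonephric markers Krt18 was called higher in male CKO. That list summed to 455 to 527 CPM in male CKO and to 391 to 456 CPM in male Ctrl. The part of either list in the level of Ezh2 was not tested. Averaged over the sexes the fold change of Ezh2 was -0.61 ± 0.0995, with an adjusted p of 0.0022 in the same edgeR fit.

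The female and male falls of Ezh2 were not told apart by the test of their difference. The female minus male difference was -0.15 on the log2 scale, with a 95% interval from -0.57 to 0.27 and an edgeR adjusted p of 0.86. Without male Ctrl 1 the male fold change was -0.63 with an edgeR adjusted p of 0.0162. Without female CKO 1 the female one was -0.52 with an adjusted p of 0.165, and without female Ctrl 3 it was -0.61 with 0.0779.

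**Figure D1:**
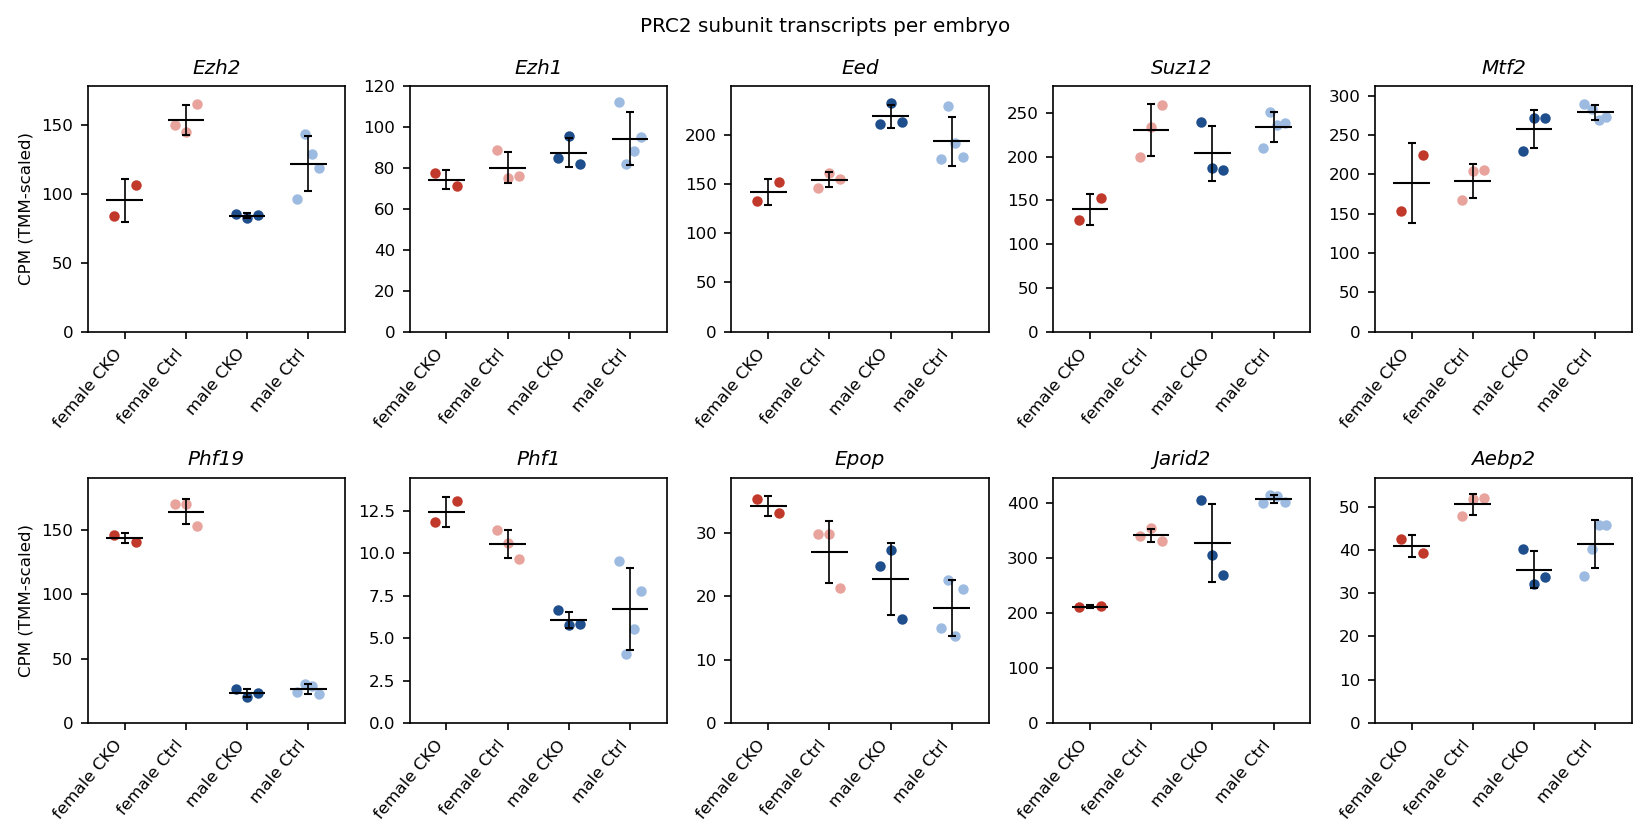
Level of each of the 10 PRC2 subunit genes in every embryo, in CPM on an axis that starts at 0, by group (CKO left of Ctrl, females left of males). Points are embryos, horizontal lines group means and error bars the SD. Ezh2 in CKO embryos of either sex lies below all controls of that sex, and Phf19 splits by sex, with females between 141 and 170 CPM and males between 19.9 and 30.4 CPM.

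In female germ cells, Suz12 and Jarid2 were lower in CKO by about as much as Ezh2 itself, and no member was called higher. With these genes, 3 of the 10 members were called, all lower, at an edgeR adjusted p under 0.05. Over all tested genes 4.16% were called lower in this comparison, 3.01% higher and 7.17% in either direction. The split over all genes was 503 higher and 695 lower, and 652 higher and 357 lower with scaling on library size alone. The median log2 fold change was -0.16 over the 10 members and 0.00 to 2 decimals over all tested genes, and 8 of the 10 were below 0.

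Suz12 (ENSMUSG00000017548, chromosome 11), the scaffold, measured 127 and 152 CPM in female CKO, against 199, 234 and 259 CPM in female Ctrl. The CKO embryos were below all controls, and the fold change was -0.72 ± 0.15 (SE), with an edgeR adjusted p of 0.0132. Jarid2 (ENSMUSG00000038518, chromosome 13), the nucleosome-binding subunit of PRC2.2, measured 210 and 214 CPM in female CKO, against 339, 354 and 331 CPM in female Ctrl. Here the gap between the groups was much wider than the spread within them, and the fold change was -0.69 ± 0.14, with an edgeR adjusted p of 0.012.

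These female calls rest on few embryos. Leaving out either CKO female leaves a group of 1 embryo, which the fit then assumes to vary like the other groups. Without female CKO 1 none of the 10 members was called by edgeR. The fold changes were then -0.52 for Ezh2, -0.60 for Suz12 and -0.67 for Jarid2, with edgeR adjusted p of 0.165, 0.114 and 0.076. Without female CKO 2 the fold change of Jarid2 was -0.69, the same to 2 decimals as with all embryos, with an edgeR adjusted p of 0.076, and Ezh2 and Suz12 kept their calls. Without female Ctrl 3 Jarid2 alone was called, and Suz12 had -0.62 with an edgeR adjusted p of 0.0554. The summed level of 18 replication and mitosis genes was 5812 CPM in female CKO 1 and 6989 CPM in female CKO 2, against 7369 to 7921 CPM in female Ctrl. The part of these differences, and of the red blood cell markers of female CKO 1, in the lower levels of the 3 members was not tested. Summed endothelial markers (4 genes) were at 0.907 and 1.81 CPM in female CKO and at 0.338 to 0.377 CPM in female Ctrl. Summed Leydig and interstitial markers were at 4.65 and 8.52 CPM in female CKO and at 3.00 to 3.56 CPM in female Ctrl. The part of these 2 lists was not tested either. Among 5 tested mesonephric epithelium markers Krt18 and Krt19 were called higher in female CKO, and 4 of the 5 were above 0 and 1 below. The summed level of the list did not separate, at 229 and 271 CPM in female CKO and 237 to 277 CPM in female Ctrl. Of the 10 germ cell markers, Dppa3 and Dppa5a were called lower in female CKO and Mael higher, and the median fold change of these 10 was -0.45. The part of these markers was likewise not tested.

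The remaining core subunits gave small differences in females. Ezh1, the alternative catalytic subunit, measured 77.5 and 71.0 CPM in female CKO, against 88.8, 75.2 and 76.1 CPM in female Ctrl. Its fold change was -0.11, with a 95% interval from -0.41 to 0.19, and the groups overlapped. Eed, the reader of the mark, measured 133 and 151 CPM in female CKO, against 146, 161 and 155 CPM in female Ctrl, which also overlap, and its interval ran from -0.38 to 0.15 on the log2 scale.

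Among the accessory subunits, 4 members other than Jarid2 had female groups that did not overlap without passing the test. Phf19 and Aebp2 were lower in both CKO embryos than in all controls, with fold changes of -0.19 and -0.30 and edgeR adjusted p of 0.449 and 0.244. Phf1 and Epop were higher in both, by 0.24 and 0.34, with edgeR adjusted p of 0.672 and 0.445. Groups that do not overlap are common in a comparison of 2 with 3 embryos, with 22.3% of all tested genes lower and 22.2% higher throughout. Mtf2, the remaining Polycomb-like gene, had its CKO embryos on either side of the controls, at 153 and 225 CPM in female CKO, against 167 to 205 CPM in female Ctrl.

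In male germ cells no member was called by edgeR at an adjusted p under 0.05. Ezh2 and Jarid2, 2 of the 10, had an unadjusted p under 0.05 in edgeR, beside 16.7% of all tested genes. DESeq2 called 1 member, Ezh2, and limma-voom with sample quality weights called Ezh2 and Jarid2. Over the whole table DESeq2 called 982 genes and limma-voom 1098. Of all tested genes, 0.497% were called lower by edgeR, 1.2% higher and 1.7% in either direction. The median log2 fold change was -0.17 over the members and -0.02 over all tested genes.

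Jarid2 measured 406, 306 and 269 CPM in male CKO, against 400, 414, 414 and 402 CPM in male Ctrl. The controls were almost level, and male CKO 1 lay among them while the other CKO embryos lay far below. Its fold change was -0.32 ± 0.11 (SE), with an edgeR adjusted p of 0.171. Suz12 measured 240, 187 and 185 CPM in male CKO, against 210, 252, 237 and 238 CPM in male Ctrl. Again male CKO 1 was at the level of the controls and the other CKO embryos were below all of them, and the fold change was -0.20 ± 0.12, with an edgeR adjusted p of 0.434.

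Without male CKO 1, the embryo whose red blood cell markers were at 5.99 CPM, Jarid2 had a fold change of -0.49 and an edgeR adjusted p of 0.0155. Ezh2 in that embryo, at 85.8 CPM, did not differ from the level in the other CKO males. Eed was the core member with the opposite sign, at 210, 232 and 213 CPM in male CKO, against 176, 229, 192 and 177 CPM in male Ctrl. These groups overlap through male Ctrl 2, and the fold change of 0.18 had a 95% interval from -0.04 to 0.40. Ezh1, Mtf2, Phf19, Phf1, Epop and Aebp2 had overlapping groups in males, fold changes between -0.23 and 0.33, and edgeR adjusted p of at least 0.395. Ezh2 was the only member whose male groups did not overlap, and it was lower in CKO. Over all tested genes 6.97% were lower and 8.01% higher in every male CKO embryo than in every male control.

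**Figure D2:**
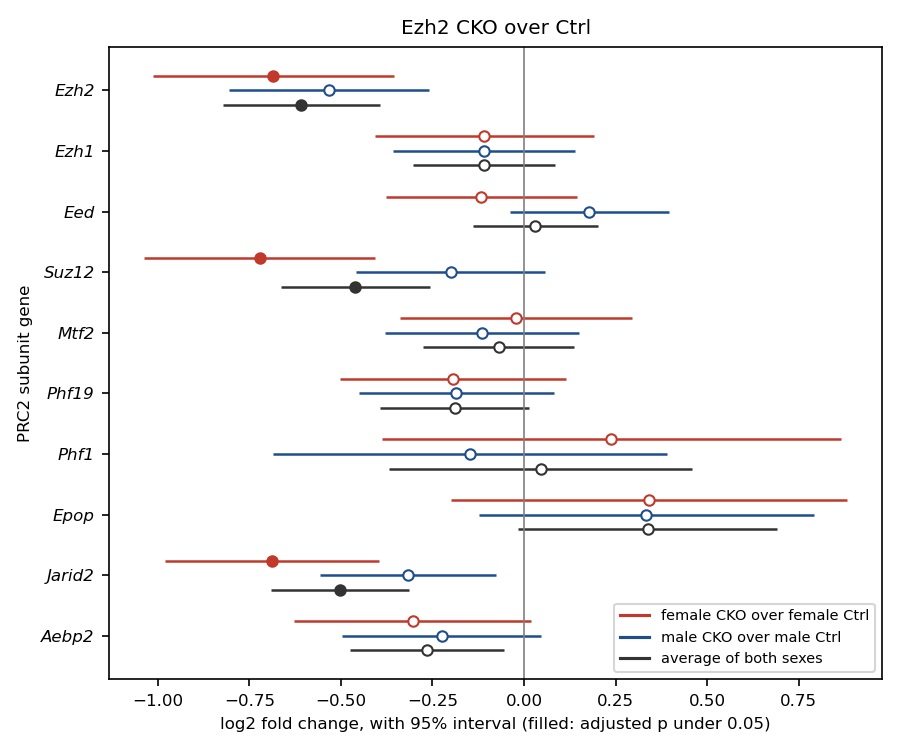
Log2 fold change of CKO over Ctrl for the 10 members in females, in males and averaged over the sexes, with 95% intervals from the edgeR fit. Filled points passed an adjusted p of 0.05. Ezh2, Suz12 and Jarid2 are filled in females and in the average, and no point is filled in males.

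Averaged over the sexes, the same 3 members were called lower, and no member higher. All tested genes gave 7.87% lower calls, 6.85% higher calls and 14.7% calls in either direction in this average. The split was 1145 higher and 1315 lower, and 1505 and 782 on library size alone. Beside Ezh2, the fold change was -0.46 ± 0.0943 (SE) for Suz12, with an edgeR adjusted p of 0.007, and -0.50 ± 0.0880 for Jarid2, with an adjusted p of 0.003. These calls held in each of the 19 alternative fits of this average, those without 1 embryo included. Aebp2, the partner of JARID2 in PRC2.2, had -0.26 with an edgeR adjusted p of 0.0877. It was called lower by limma-voom, at -0.33 with an adjusted p of 0.0185, and by edgeR without male Ctrl 1, at -0.30 with an adjusted p of 0.0344. Epop had 0.34 with an edgeR adjusted p of 0.19. In this average edgeR also called Krt18, Krt19 and Pax8 of the mesonephric markers and Cdh5 of the endothelial ones higher, and none of either list lower. Of the red blood cell markers Hba-a2 was called higher. Of the 10 germ cell markers Dnd1, Dppa3, Dppa5a and Mael were called, 3 lower and 1 higher. The part of these markers in the levels of the members was not tested.

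No member had a CKO effect that edgeR called different between the sexes, and 0% of all tested genes were called. Suz12 alone had an unadjusted p under 0.05 in edgeR, which 8.39% of all tested genes also had. Its female minus male difference was -0.52 on the log2 scale, with a 95% interval from -0.92 to -0.12 and an edgeR adjusted p of 0.513. DESeq2 and limma-voom also called no member. For Jarid2 the difference was -0.37, with an interval from -0.75 to 0.00 to 2 decimals, and for Eed it was -0.29, with an interval from -0.63 to 0.05. The interval of Suz12 lies below 0, although its p did not pass the adjustment over all genes, while those of Jarid2 and Eed include 0.

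Ezh2 is known for high levels in dividing cells, and its level was also set against the replication and mitosis list in each embryo. Ezh2 amounted to 1.45% and 1.53% of the summed CPM of the 18 genes in female CKO, against 2.04%, 1.85% and 2.09% in female Ctrl. In males it amounted to 1.08%, 0.965% and 1.11% in CKO, against 1.40%, 1.51%, 1.45% and 1.55% in Ctrl. On this scale the CKO and Ctrl embryos of each sex do not overlap. Male Ctrl 1, which had the lowest summed level of the list among males at 6912 CPM, lies near the other controls. The share of all genes that separate on this scale was not computed. In CPM 22.3% of all tested genes were lower throughout in female CKO and 6.97% in male CKO. The part of cell division in the level of Ezh2 was not tested. Suz12 amounted to 2.19% and 2.18% of the sum in female CKO, against 2.71% to 3.27% in female Ctrl. In males Suz12 overlapped, at 2.19% to 3.02% in CKO and 2.63% to 3.10% in Ctrl. Bub1 and Mcm7 were the 2 of 18 genes of the list called by edgeR in females, both lower, beside 7.17% of all tested genes. At an unadjusted p under 0.05 there were 7 of the 18, beside 23.3% of all tested genes. Below 0 were 16 of the 18, beside 50.3% of all tested genes, and the median fold change was -0.26. None of the 18 was called in males by edgeR, DESeq2 or limma-voom or at an unadjusted p under 0.05. In edgeR 1.7% of all tested genes were called in males, and 16.7% had an unadjusted p under 0.05.

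Per kilobase of exon, the balance of the catalytic subunits was lower in CKO females. The Ezh2 to Ezh1 ratio was 1.21 and 1.67 in female CKO, against 1.88, 2.15 and 2.43 in female Ctrl. In males it was 1.13, 0.959 and 1.16 in CKO, against 0.959, 1.96, 1.63 and 1.40 in Ctrl. Male Ctrl 1 had the ratio of a CKO embryo, with the lowest Ezh2 and the highest Ezh1 (112 CPM) among the male controls, and apart from that library the male groups do not overlap. The ratio depends on the lengths used and is 1.35 times as high with the longest coding transcript of each gene, while the order of the embryos does not depend on them.

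**Figure D3:**
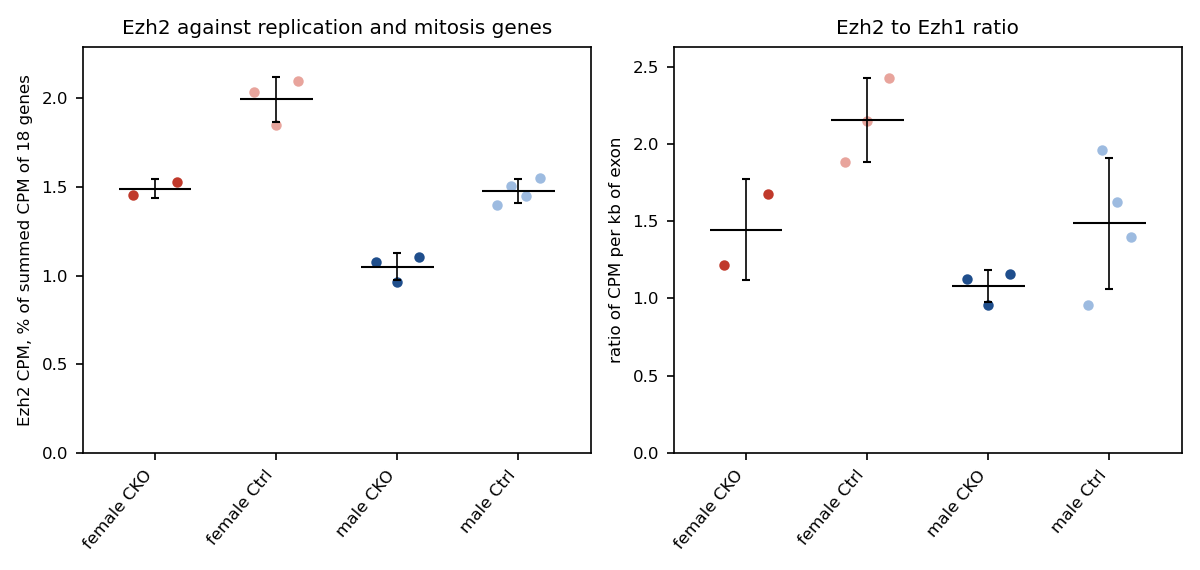
Ezh2 as a percentage of the summed CPM of 18 replication and mitosis genes (left), and relative to Ezh1 per kilobase of exon (right), in each embryo, on axes that start at 0. Points are embryos, horizontal lines group means and error bars the SD. Relative to the replication genes, all CKO embryos lie below the controls of their sex, whereas for the ratio to Ezh1 male Ctrl 1 lies at 0.959, among the CKO males.

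The members were also ordered by their level per kilobase of exon. In female CKO the order from the highest was Eed, Mtf2, Phf19, Suz12, Jarid2, Epop, Ezh2, Ezh1, Aebp2 and Phf1. In female Ctrl it was Suz12, Eed, Jarid2, Mtf2, Phf19, Ezh2, Epop, Ezh1, Aebp2 and Phf1. Eed averaged 37.1 ± 3.47 CPM per kb in female CKO and 40.2 ± 1.99 in female Ctrl (SD, n = 2 and 3), whereas Suz12 averaged 28.3 ± 3.56 in female CKO and 46.7 ± 6.03 in female Ctrl.

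Neighbours whose embryos overlapped, and whose order is therefore not settled, were Eed with Mtf2, Mtf2 with Phf19, Phf19 with Suz12, and Epop with Ezh2 in female CKO. In female Ctrl they were Suz12 with Eed, Jarid2 with Mtf2, Mtf2 with Phf19, and Epop with Ezh1. Both male groups had 1 order, which was Eed, Mtf2, Suz12, Jarid2, Ezh2, Ezh1, Epop, Phf19, Aebp2 and Phf1. Ezh2 and Ezh1 were neighbours there, at 12.6 ± 0.268 and 11.8 ± 0.969 CPM per kb in male CKO (SD, n = 3) and at 18.3 ± 2.98 and 12.7 ± 1.76 in male Ctrl (SD, n = 4), and their ranges overlapped in both groups. In male CKO the other overlapping neighbours were Mtf2 with Suz12, Suz12 with Jarid2, Ezh1 with Epop, and Phf19 with Aebp2. In male Ctrl they were Eed with Mtf2, Mtf2 with Suz12, Suz12 with Jarid2, Epop with Phf19, and Phf19 with Aebp2. With the longest coding transcript as the length, Ezh2 ranked 5 rather than 7 in female CKO and 3 rather than 6 in female Ctrl. Suz12 then ranked 6 rather than 4 in female CKO and 4 rather than 1 in female Ctrl, where Eed ranked 1.

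Of the differences between the sexes, the largest among the members was that of Phf19 (ENSMUSG00000026873, chromosome 2), a Polycomb-like gene. Its level in females was 6.15 times that in males among CKO embryos and 6.19 times among Ctrl embryos. Among Ctrl embryos, 5 of the 10 members were called by edgeR, with Ezh2, Phf19 and Epop higher in females and Eed and Mtf2 lower. This background is high, since 20.1% of all tested genes were called higher and 19.4% lower, and 39.5% in either direction. The split was 3358 higher and 3246 lower, and 4062 and 2592 on library size alone. Among CKO embryos 6 were called, with Phf19 and Phf1 higher in females and Eed, Suz12, Mtf2 and Jarid2 lower, where 19.4% of all genes were called higher, 19% lower and 38.4% in either direction. Here the split was 3239 and 3172, and 4336 and 2212 on library size alone. These comparisons share their embryos with those of CKO against Ctrl.

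Phf19 measured 170, 170 and 153 CPM in female Ctrl, against 24.2, 30.4, 28.8 and 22.8 CPM in male Ctrl. It measured 147 and 141 CPM in female CKO, against 26.7, 19.9 and 23.4 CPM in male CKO. No embryo of one sex came near the other sex. The log2 fold change of females over males was 2.63 ± 0.12 (SE) among Ctrl embryos, with an edgeR adjusted p of 1.71e-08, and 2.62 ± 0.15 among CKO embryos, with an adjusted p of 1.26e-07. Across the 20 alternative fits these values ran from 2.56 to 2.74 and from 2.52 to 2.80, and Phf19 was called in each of them.

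The other Polycomb-like genes did not follow Phf19 in size. Mtf2 measured 167, 204 and 205 CPM in female Ctrl, against 290, 284, 269 and 273 CPM in male Ctrl. It was thus lower in every female Ctrl embryo, with a fold change of -0.54 ± 0.12 and an edgeR adjusted p of 0.00381. Among CKO embryos the fold change was -0.45 with an edgeR adjusted p of 0.0298, and -0.20 with 0.345 without female CKO 1, which had the lowest Mtf2 of all libraries at 153 CPM. Mtf2 also lost this call on library size alone, with a filter of 5 CPM in 2 libraries and without male CKO 2 or male CKO 3.

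Phf1, at under 14 CPM in every library, was higher in females, by 0.65 among Ctrl embryos with an edgeR adjusted p of 0.0506, and by 1.03 ± 0.29 among CKO embryos with 0.0129. The Ctrl difference passed the threshold in 7 of the 20 alternative fits, DESeq2 and limma-voom among them, with adjusted p from 0.0038 to 0.0493. Without female CKO 2 the CKO value was 0.96 with an edgeR adjusted p of 0.0727. The protocol does not mark strand, and 1370 of the 3486 exon bases of Phf1 overlap Cuta on the opposite strand, so reads of Cuta cannot be told apart there. The overlaps of Mtf2 with Tmed5 (395 bases), of Eed with E230029C05Rik (261), of Suz12 with Gm26563 (178) and of Ezh2 with Gm26625 (174) are shorter. Epop measured 29.8, 29.8 and 21.3 CPM in female Ctrl, against 14.9, 22.5, 13.7 and 21.1 CPM in male Ctrl, with a fold change of 0.58 ± 0.21 and an edgeR adjusted p of 0.0436. Its groups overlapped, and the call was lost in 7 of the 20 alternative fits.

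In the core, Ezh2 and Eed pointed in opposite directions between the sexes. Ezh2, whose Ctrl values are given above, was higher in female than in male Ctrl by 0.33 ± 0.12, with an edgeR adjusted p of 0.0492, but the call was lost in 11 of the 20 alternative fits. Among CKO embryos its difference of 0.18 had a 95% interval from -0.14 to 0.50. Eed was lower in females, with a fold change of -0.33 ± 0.10 among Ctrl embryos and an edgeR adjusted p of 0.0208, and of -0.62 ± 0.12 among CKO embryos with 0.00154. Without female Ctrl 1 or female Ctrl 3, or on library size alone, the Ctrl call of Eed was lost, while the CKO call held throughout the 20 alternatives.

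Suz12 and Jarid2 were lower in females among CKO embryos, with fold changes of -0.54 ± 0.15 and -0.63 ± 0.14 and edgeR adjusted p of 0.00984 and 0.00275. Among Ctrl embryos their sex differences were -0.02 and -0.25, with edgeR adjusted p of 0.907 and 0.0878. The test of that change is the difference of the CKO effects given above, which edgeR did not call for either gene. Without female CKO 1 the CKO value of Suz12 was -0.42 with an edgeR adjusted p of 0.111. Ezh1 and Aebp2 were called in neither comparison of the sexes in the fit of all 12 libraries with TMM. Between the Ctrl sexes Aebp2 was called on library size alone, at 0.39 with an edgeR adjusted p of 0.0227. Jarid2 was called there with only the groups compared, at -0.25 with an edgeR adjusted p of 0.0197. It was also called there without male CKO 1, at -0.24 with an edgeR adjusted p of 0.0185.

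**Figure D4:**
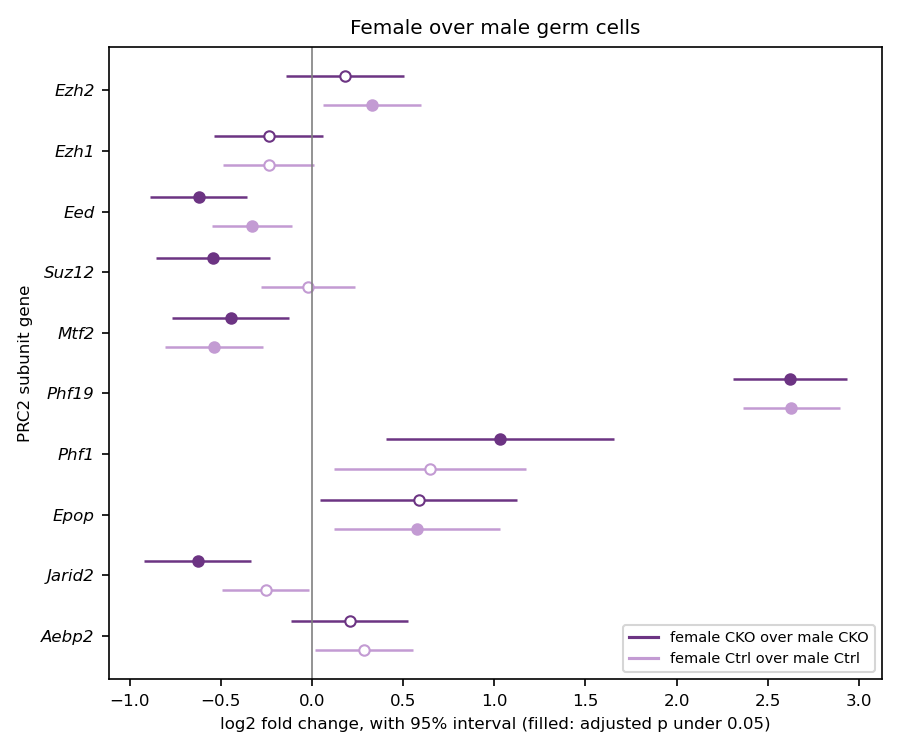
Log2 fold change of females over males for the 10 members, among CKO embryos and among Ctrl embryos, with 95% intervals from the edgeR fit. Filled points passed an adjusted p of 0.05. Phf19 stands at 2.62 and 2.63, and the other 9 members lie between -0.63 and 1.03.

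Of 8 listed partners and antagonists of PRC2, 7 were tested (Ezhip had no match). EdgeR called none of the 7 in CKO against Ctrl in either sex, with 0 in females and 1 in males at an unadjusted p under 0.05, and limma-voom called none and DESeq2 1 in males. The share over all tested genes was 7.17% in females and 1.7% in males, so a count of 0 among 7 is near this background. Between the sexes 3 of the 7 were called in either genotype, near the 38.4% of all genes among CKO and the 39.5% among Ctrl embryos. Kdm6a, an X-linked demethylase of the mark, averaged 68.0 ± 3.48 CPM in female CKO and 42.1 ± 3.22 CPM in male CKO, and 87.6 ± 26.8 CPM in female Ctrl and 53.9 ± 4.42 CPM in male Ctrl (SD), and was called higher in females in both. Lcorl, which encodes a protein of some PRC2.1 complexes, was called higher in females in both comparisons as well, and Uty, the Y-linked relative of Kdm6a, lower.

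Genes of canonical PRC1, the complex that reads the mark through its CBX proteins, were looked up from a list of 12. Over all tested genes edgeR called 7.17% in females and 1.7% in males, in either direction. In females Cbx7 was called lower in CKO, at 28.3 ± 1.85 CPM in female CKO and 39.5 ± 3.47 CPM in female Ctrl (SD, n = 2 and 3), with a fold change of -0.48 ± 0.14 (SE) and an edgeR adjusted p of 0.0487. In males Cbx8 and Ring1 were called lower in CKO, and Bmi1 and Phc2 higher. Cbx8 averaged 0.582 ± 0.132 CPM in male CKO and 2.09 ± 0.688 CPM in male Ctrl (SD, n = 3 and 4). Its call thus rests on few reads, with at most 0.711 CPM in a male CKO library. Ring1, which encodes a ubiquitin ligase of PRC1, averaged 13.6 ± 2.31 CPM in male CKO and 24.3 ± 2.72 CPM in male Ctrl. Phc2 averaged 63.0 ± 7.97 CPM in male CKO and 36.1 ± 4.63 CPM in male Ctrl.

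The genes whose levels were most like those of the called members over the 12 libraries were found by Pearson's correlation of log2 CPM across 9743 genes with a mean of at least 5 CPM. The libraries share their groups, so a high value here can come from a common pattern over sex and genotype as well as from likeness between embryos of a group. For Ezh2 they were Abhd14a (r = 0.948, rho = 0.951) and Slf1 (r = 0.946, rho = 0.874). For Suz12 they were Gdf3 (r = 0.938, rho = 0.769) and Yap1 (r = 0.938, rho = 0.846), and for Jarid2 they were Xpo6 (r = 0.980, rho = 0.951) and Ywhag (r = 0.978, rho = 0.986). With the group means removed, r was 0.804 for Abhd14a and 0.866 for Slf1 with Ezh2. It was then 0.712 for Gdf3 and 0.781 for Yap1 with Suz12, and 0.858 for Xpo6 and 0.878 for Ywhag with Jarid2. These genes were picked by r over the same libraries, so these values are no independent check. Over the 5 highest genes for Ezh2 this r ran from 0.420 (Zcchc2) to 0.910 (Slc37a1).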

How the data were processed

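RNA of germ cells sorted from 12 embryos was turned into cDNA with SMART-seq V4 from 1 ng of RNA and 11 cycles, and sequenced without strand information, per the labels' protocols. The values used are the read counts per gene as deposited by the authors. Per the submitters' processing notes, the tools were TopHat2 2.0.11, Trimmomatic 0.33, CASAVA 1.8.4 and featureCounts, with mm9 and NCBIM37 as builds, and the notes do not say how reads with several matches were counted. Symbols, chromosomes and exon lengths came from GENCODE M21 on GRCm38, so no gene coordinates are given beyond the RefSeq promoter windows.

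The filter on low counts was filterByExpr of edgeR over the 4 groups, with a minimum total of 15 and a minimum count of 10. Libraries were scaled by TMM, and a robust quasi-likelihood model was fitted in edgeR 4.0.16 (R 4.3.3) with a coefficient per group and 8 residual degrees of freedom. P-values were adjusted by Benjamini-Hochberg over all 16708 tested genes, with a call at 0.05. SE were derived from the F statistic. P-values measure the spread between embryos. Libraries of a group differed by more than counting noise (chi-square per gene 17.1 to 67.7), so none was counted as a duplicate. On simulated counts made from these libraries the test recovered 37% of 100 genes changed by 0.7 on the log2 scale in the female comparison and 63% in the male one. Of 100 genes changed by 1.5 it recovered 95% and 97%. No other genes were changed there, and the spread was that of the trend over genes, so these rates need not hold for the members. All members are named whatever their result, partner genes by their call, and likeness by rank. DESeq2 1.42.0 and limma 3.58.1 were used in alternatives. The members and lists were chosen with earlier results of these data known. Some results of the partner lists are not reported here.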

Additional observations from a re-analysis of the deposited data

How the results depend on the processing

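Each result was recomputed under 8 other settings and without each of the 12 libraries. In females the 3 member calls held in all 8 other settings, and without single libraries the count ran from 0 to 3 and the fold change of Ezh2 from -0.85 to -0.52. In males the count was 1 with no filter on low counts, 1 with a filter of 5 CPM in 2 libraries, 1 in DESeq2 and 2 in limma-voom, where Ezh2 had -0.51, -0.52, -0.52 and -0.57. Without single libraries the male count ran from 0 to 1, and Ezh2 from -0.63 to -0.44. The count of members between female and male Ctrl ran from 2 to 5 without single libraries, with 2 without female Ctrl 1 and 3 without female Ctrl 2, female Ctrl 3 or male Ctrl 3. The causes were not tested.

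Signs turned only for values that were called in no setting. In females Mtf2 had 0.00038 with median-of-ratios size factors, 0.094 on library size alone, 0.041 with the 5 CPM filter and 0.0039 with only the groups compared, and -0.32 to 0.23 without single libraries. Scaling on library size alone shifted the median over all genes by 0.11 in females, by 0.10 between Ctrl sexes and by 0.18 between CKO sexes. There Ezh1 had 0.0051 in females, Mtf2 0.0074 in the average and Suz12 0.080 between Ctrl sexes. Without single libraries, Phf1 ran from -0.33 to 0.071 in males and from -0.044 to 0.16 in the average, Eed from -0.012 to 0.080 and Mtf2 from -0.21 to 0.059 in the average, Suz12 from -0.10 to 0.076 between Ctrl sexes, and the sex difference of the Ezh2 effect from -0.32 to 0.0099.

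Same-numbered CKO and Ctrl libraries of a sex correlated between -0.024 and 0.108 in their deviations, and same-numbered libraries of any 2 groups between -0.0953 and 0.152. These were not all above 0.1, and replicates were not treated as pairs, but the check cannot settle whether embryos were paired. The numbers are those of the sample titles, and the names of the count columns number the females otherwise. In a group of 2 the deviations are mirror images, so female CKO 1 and female CKO 2 had 0.108 and -0.108 with female Ctrl 1. The fit with the replicate number as a block called 3, 0, 3, 0, 5 and 6 members in the 6 comparisons, the counts of the fit without it. Between the Ctrl sexes the block exchanged members, since Ezh2 lost its call (adjusted p 0.0618 in edgeR) and Phf1 gained one (0.77, adjusted p 0.0389). Ezh2 was at -0.66 in females and -0.53 in males. Counts over the whole table moved more. Against 1198 genes in females, DESeq2 called 1973, limma-voom 2035 and the fits without 1 library 317 to 1730. Against 284 in males, the fit of only the male groups called 63, the replicate block 105, DESeq2 982, limma-voom 1098 and the fits without 1 library 36 to 502. For the difference between the sexes, against 0, no filter gave 2, DESeq2 51 and the fit without female CKO 1 gave 3. Against 2460 in the average, the fits without female CKO 1, female CKO 2, female Ctrl 3 or male CKO 3 called between 1363 and 1624. Against 6411 between the CKO sexes, the fit without female CKO 1 called 4063.

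In the average limma-voom called 4 members, Aebp2 beside the other 3. With 2 female CKO embryos the female calls rest on a small base. The Ezh2 count includes any transcript of the deleted allele. Exon lengths come from another assembly than the counts and decide the order of members with similar levels.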
